A study of Homo sapiens with 2 samples.

Results

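The BCL2 family decides whether the outer mitochondrial membrane is opened during apoptosis. The 10 genes described here are the rows of both count files whose Ensembl IDs map to BCL2L11 (BIM), BBC3 (PUMA), PMAIP1 (NOXA), BID, BAD, BAX, BAK1, BCL2L2 (BCL-w), BCL2L1 (BCL-xL) and MCL1. All 10 were found among the 22965 genes listed, and all 10 averaged 10 counts or more over both libraries, the minimum used for counts of genes. RNA-seq counts came from 2 libraries of H460 cells, a human line of large-cell lung carcinoma. One came from control cells carrying pSin-puro as vector. The other came from cells overexpressing, from pSin-puro, the gene PKP2, the desmosomal armadillo protein plakophilin 2. Both cultures were at passage 5 and were grown in DMEM with 10% serum. There was 1 library per group, so no spread between cultures could be measured, no test was made and no difference below has a replicate check. Whether each culture was a clone or a pool of transduced cells is not given in the sources used here.

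The family has 3 roles. BH3-only proteins such as BIM, PUMA, NOXA, BID and BAD relay stress and loss of growth signals to the rest of the family. The effectors BAX and BAK1 form pores in the outer membrane through which cytochrome c leaves. The pro-survival proteins BCL-w, BCL-xL and MCL1 hold both other kinds in check until BH3-only proteins occupy their groove. In lung cancer cells BIM is known as a mediator of death after growth factor signalling is blocked, and PUMA and NOXA are known as genes switched on by cell stress.

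BIM and PUMA, both BH3-only, lay on opposite sides of equality in these libraries. BCL2L11 was 6.33-fold higher in the PKP2 library than in the vector library, while BBC3 was 2.67-fold lower and the pro-survival gene BCL2L2 was 3.16-fold lower. After a correction for the GC content of transcripts, the log2 ratio of BBC3 was -0.70, within 2-fold, while BCL2L2 stayed past 2-fold at -1.59 and BCL2L11 at 2.64. The sum of BCL2L11 and the overlapping antisense gene MIR4435-2HG was at 0.42, within 2-fold. The sum of BCL2L2, BCL2L2-PABPN1 and PABPN1 was at -0.49, also within 2-fold. MIR4435-2HG and PABPN1 hold most of the counts in these sums, which are thus not ratios of BCL2L11 and BCL2L2 themselves. The sum of BCL2L2 and BCL2L2-PABPN1 without PABPN1 was not computed, so whether it lies past 2-fold is not shown. BAX, BAD and BAK1 were lower by smaller amounts, and PMAIP1, BID, BCL2L1 and MCL1 were close to equal. Ratios are those of CPM, the count scaled to the size of its library, as PKP2 over vector on the log2 scale. Their 95% intervals cover counting error only. In bulk RNA, fewer cells that express a gene and less of its RNA per cell cannot be told apart.

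The libraries held 23513304 counts (vector) and 20319137 counts (PKP2), and 15991 genes reached the minimum. The count of PKP2 was in the direction of its label, at 181 counts with vector and 1330 with PKP2 (log2 ratio 3.11). Of markers of an epithelial line, KRT8, KRT18 and KRT19 were at 188 to 697 CPM, and EPCAM had only 28 and 16 counts. CDH1 was looked up but matched none of the genes listed. The listed markers of fibroblasts, leukocytes and endothelium reached at most 10.3 CPM (PDGFRB), 3.79 CPM (CD14) and 0.0843 CPM (VWF and KDR) in any library. PDGFRB had 111 and 208 counts, COL1A1 132 and 48, and CD14 90 and 23, and the part of any such difference in the results was not tested. Across 11610 well-counted genes the ratio went down with the GC content of the transcript (Spearman's rho -0.61, a description across genes of 1 pair of libraries), so GC-corrected ratios are given beside the ratios as counted.

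The sequences just before the starts of BCL2L11, BBC3 and BAX are shown because these genes are the highest BH3-only gene, the lowest BH3-only gene and the lower effector in the comparison. Each is the 250 bases before the gene start in RefSeq (GRCh38.p14), written 5′ to 3′ on the strand of the gene. The stretch for BCL2L11 is chr2:111120664-111120913 (plus strand), that for BBC3 is chr19:47232668-47232917 (minus strand) and that for BAX is chr19:48954625-48954874 (plus strand).
BCL2L11: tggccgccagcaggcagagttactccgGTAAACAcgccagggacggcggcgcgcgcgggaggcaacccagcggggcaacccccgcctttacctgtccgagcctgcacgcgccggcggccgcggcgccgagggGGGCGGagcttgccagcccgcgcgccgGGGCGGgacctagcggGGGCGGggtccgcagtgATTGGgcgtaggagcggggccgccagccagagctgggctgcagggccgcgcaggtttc
BBC3: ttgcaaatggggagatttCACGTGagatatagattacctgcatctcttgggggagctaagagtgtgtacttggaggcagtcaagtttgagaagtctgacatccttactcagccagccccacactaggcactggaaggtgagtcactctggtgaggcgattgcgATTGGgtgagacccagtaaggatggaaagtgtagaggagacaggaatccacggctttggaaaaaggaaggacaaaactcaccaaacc
BAX: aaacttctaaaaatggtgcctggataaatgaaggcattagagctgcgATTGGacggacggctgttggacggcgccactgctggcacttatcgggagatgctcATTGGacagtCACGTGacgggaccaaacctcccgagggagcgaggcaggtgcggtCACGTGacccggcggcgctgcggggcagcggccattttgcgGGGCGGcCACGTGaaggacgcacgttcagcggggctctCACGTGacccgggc
Capitals mark matches, on either strand, to a GC box (GGGCGG), a FOXO site (GTAAACA), an E-box (CACGTG), a cyclic AMP response element (TGACGTCA) and an NF-Y box (CCAAT). No match to the cyclic AMP response element was found in these windows, and no capital stretch joins overlapping motifs of different kinds. The BCL2L11 stretch held 1 FOXO match, a motif present in 2.98% of 35114 RefSeq promoter stretches of this length, and 3 GC boxes, present in 42.6%. The BBC3 stretch held 1 E-box, a motif in 6.35% of stretches, and no FOXO match or GC box. The BAX stretch held 4 E-boxes and 1 GC box. NF-Y boxes, in 32.0% of stretches, numbered 1 for BCL2L11, 1 for BBC3 and 2 for BAX. GC content was 76.8% before BCL2L11, 49.2% before BBC3 and 62.8% before BAX, against a median of 58.0% over all stretches. These matches are descriptions of letters and were not tested for binding. The principal transcripts of BCL2L11 and BAX in GENCODE start 0 and 2 bases from the RefSeq start, but that of BBC3 starts 1473 bases further on, so the BBC3 stretch belongs to another of its starts.

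**Figure D1:**
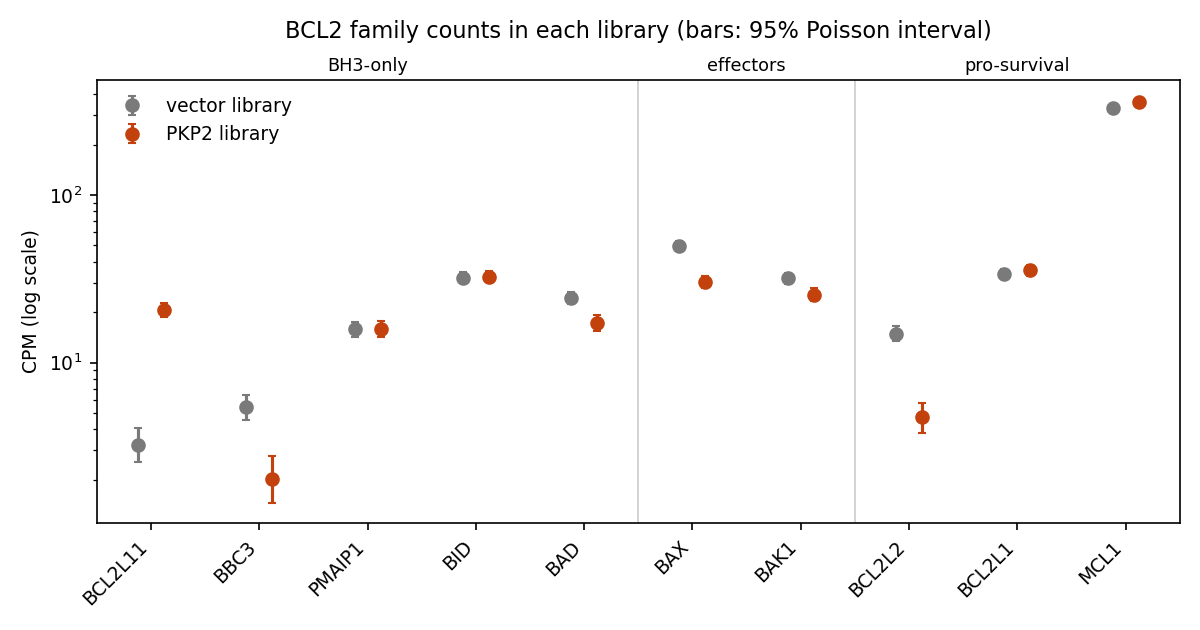
CPM (log axis) of the 10 BCL2 family genes, grouped by role, in the vector library (grey) and the PKP2 library (orange), with 95% Poisson intervals for counting error only. BCL2L11 goes from 3.25 to 20.6 CPM, while BBC3 and BCL2L2 lie lower in the PKP2 library and MCL1 is the most counted gene in both.

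Among the BH3-only genes, BCL2L11 (ENSG00000153094, chromosome 2) encodes BIM, which binds every pro-survival protein of the family and can activate BAX and BAK directly. It had 77 counts with vector and 414 with PKP2, or 3.25 and 20.6 CPM. The ratio was 2.66 (interval 2.31 to 3.03), a fold of 6.33 (interval 4.96 to 8.19), so the whole counting interval lay past 2-fold. Only 20 of the 15991 genes had a higher ratio. Its transcript has a GC content of 47.9%, and its ratio after the GC correction was 2.64.

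Exons of BCL2L11 overlap those of MIR4435-2HG, a long non-coding RNA gene on the opposite strand, over 727 bases. MIR4435-2HG shares 10.1% of the 31-base stretches of BCL2L11. The TruSeq RNA kit named in the labels does not mark strand, so reads from the overlap cannot be told apart. MIR4435-2HG had 970 counts with vector and 772 with PKP2, for a ratio of -0.09 (interval -0.23 to 0.05). It was lower by 2.55 CPM in the PKP2 library, while BCL2L11 was higher by 17.3 CPM. Summed over both genes the counts were 1047 and 1186, for a ratio of 0.42 (interval 0.29 to 0.54), which is still above 0 but under 2-fold because MIR4435-2HG holds most of the counts.

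BBC3 (ENSG00000105327, chromosome 19) encodes PUMA, which also binds every pro-survival protein. It had 129 counts with vector and 41 with PKP2, or 5.44 and 2.04 CPM, the lowest of the 10 genes in the PKP2 library. The ratio was -1.42 (interval -1.96 to -0.90), or 2.67-fold lower (interval 1.87 to 3.89), so the interval reached inside 2-fold. Its principal transcript is the richest in GC of the 10, at 69.7%, and the 100 genes nearest in GC content and length had a median ratio of -0.65. After the GC correction the ratio of BBC3 was -0.70 (interval -1.24 to -0.18), still below 0 but within 2-fold. It shares no 31-base stretch with another listed gene.

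The other BH3-only genes were within 2-fold. PMAIP1 (ENSG00000141682, chromosome 18) encodes NOXA, which binds MCL1 in particular, and had 376 and 321 counts, for a ratio of 0.008 (interval -0.21 to 0.23). Its principal transcript is the poorest in GC of the 10, at 37.2%, and its GC-corrected ratio was -0.25 (interval -0.47 to -0.03). BID (ENSG00000015475, chromosome 22), which caspase 8 cuts to link death receptors to mitochondria, had 764 and 657 counts, for a ratio of 0.02 (interval -0.13 to 0.17). BAD (ENSG00000002330, chromosome 11), which growth factor kinases hold inactive on 14-3-3 proteins, had 580 and 348 counts, for a ratio of -0.50 (interval -0.70 to -0.31). The BAD transcript has a GC content of 66.3%, and the GC-corrected ratio was 0.07 (interval -0.13 to 0.26). BAD overlaps GPR137 on the opposite strand and shares 18.5% of its 31-base stretches with it. GPR137 had 361 and 223 counts, for a ratio of -0.46, and the sum of both genes was at -0.48.

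Both effector genes were lower in the PKP2 library. BAX (ENSG00000087088, chromosome 19) had 1184 counts with vector and 609 with PKP2, or 49.9 and 30.2 CPM. Its ratio was -0.72 (interval -0.87 to -0.58), or 1.65-fold lower, and -0.39 (interval -0.54 to -0.25) after the GC correction. BAK1 (ENSG00000030110, chromosome 6) had 755 and 513 counts, for a ratio of -0.32 (interval -0.49 to -0.16) that came to -0.06 (interval -0.22 to 0.11) after the GC correction. BAK1 shares 16.6% of its 31-base stretches with its pseudogene BAK1P1, which had only 41 and 17 counts. After the correction, BAX stayed below 0 beyond its counting error and BAK1 did not.

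Of the pro-survival genes, 1 was lower and the others were near equality. BCL2L2 (ENSG00000129473, chromosome 14), which encodes BCL-w, had 354 counts with vector and 95 with PKP2, or 14.9 and 4.72 CPM. Its ratio was -1.66 (interval -2.00 to -1.33), or 3.16-fold lower (interval 2.52 to 4.01), and -1.59 after the GC correction. Its exons overlap those of the read-through gene BCL2L2-PABPN1 on the same strand over 813 bases, and 18.5% of its 31-base stretches are shared with that gene. BCL2L2-PABPN1 had 163 and 147 counts, for a ratio of 0.09 (interval -0.24 to 0.42), and was higher by 0.43 CPM, while BCL2L2 was lower by 10.2 CPM. PABPN1, the downstream gene for a poly(A) binding protein, had 2825 and 1781 counts, for a ratio of -0.43 (interval -0.52 to -0.34). Summed over the 3 genes the ratio was -0.49 (interval -0.57 to -0.41), and PABPN1 holds most of that sum. In the PKP2 library BCL2L2-PABPN1 had more counts than BCL2L2 (147 against 95). The sum of BCL2L2 and BCL2L2-PABPN1 alone was not computed. PPP1R3E, which overlaps BCL2L2 on the opposite strand, had 139 and 100 counts, for a ratio of -0.24 (interval -0.62 to 0.14).

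BCL2L1 (ENSG00000171552, chromosome 20) encodes BCL-xL and, by another splice site, the pro-death form BCL-xS, which gene counts cannot separate. It had 799 and 717 counts, for a ratio of 0.08 (interval -0.07 to 0.23). After the GC correction it was at 0.28 (interval 0.14 to 0.43). MCL1 (ENSG00000143384, chromosome 1), whose protein is made and degraded quickly, had 7817 and 7249 counts, or 329 and 360 CPM. Its ratio was 0.13 (interval 0.08 to 0.17), and 0.04 (interval -0.01 to 0.09) after the GC correction. Neither gene was near 2-fold, as counted or corrected.

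**Figure D2:**
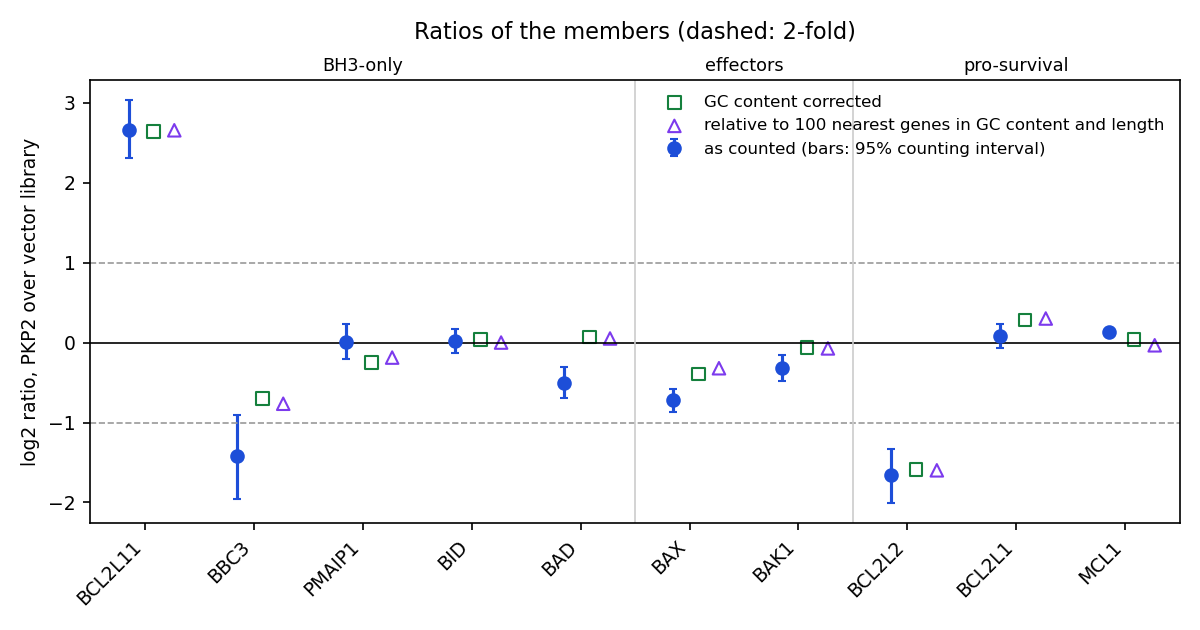
Log2 ratio (PKP2 over vector library) of each of the 10 genes as counted (blue, with 95% counting intervals), after a correction for GC content (green squares) and against its 100 closest genes by GC content and length (purple triangles). BCL2L11 stays near 2.65 and BCL2L2 near -1.6 in all 3, while BBC3 goes from -1.42 to -0.70 and -0.76 and BAD from -0.50 to about 0.

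Counted together, 1 of the 10 genes was at least 2-fold higher, against 2.47% of all genes at the minimum, and 2 were at least 2-fold lower, against 4.61%. With the GC correction 1 was higher (background 2.32%) and 1, BCL2L2, was lower (background 3.44%). After that correction 5 ratios were below 0, where 51.1% of all genes were. Ratios were below 0 in 5 genes and above 0 in 5, where 52.7% of all genes were below 0 and 47.3% above. The counting interval lay wholly below 0 in 5 genes (BBC3, BCL2L2, BAX, BAK1 and BAD; 28.8% of all genes) and wholly above 0 in 2 (BCL2L11 and MCL1; 25.9% of all genes). The median ratio of the family was -0.16 beside -0.03 over all genes at the minimum, and -0.01 beside -0.01 after the GC correction. These are counts over 10 genes of 1 pair of libraries, and members are not replicates. The genes were chosen with earlier results of these data known, so the shares over all genes are no test of these counts.

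**Figure D3:**
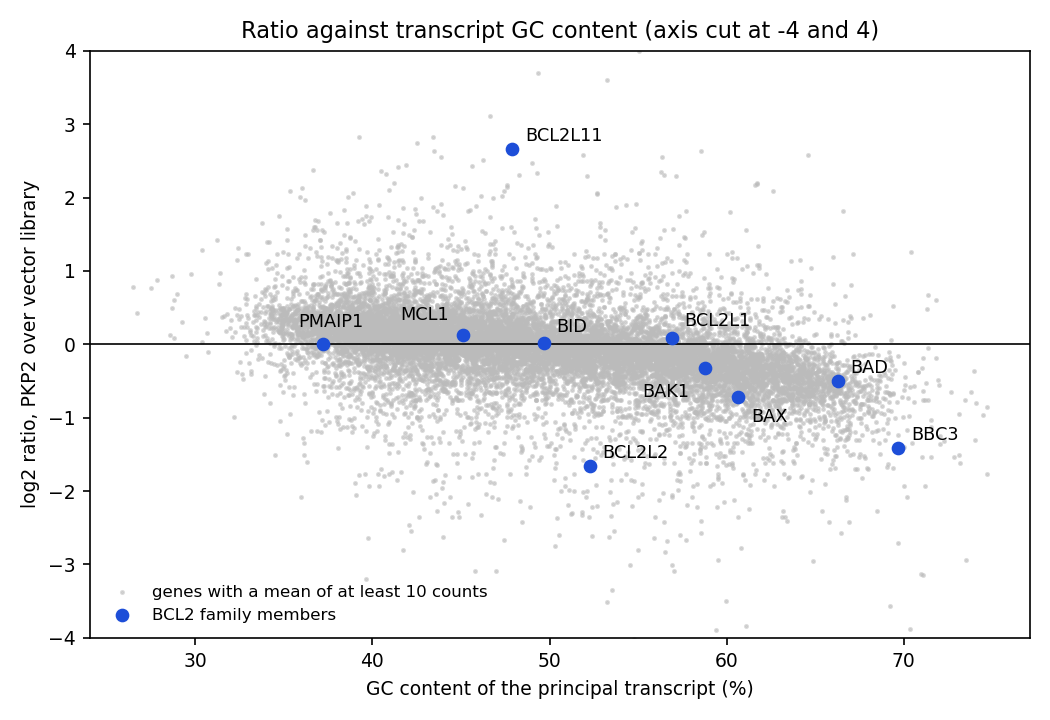
Log2 ratio (PKP2 over vector library) against the GC content of the principal transcript, in percent, for 15857 genes at the minimum (grey; 22 more lie outside the axis) and the 10 BCL2 family genes (blue). The grey cloud slopes down with GC content, BAD and BAK1 lie along it, BAX lies below its centre, BBC3 lies in the richest part and below the cloud's centre, and BCL2L11 and BCL2L2 lie far above and below it at middle GC content.

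Levels of the genes were compared with each other per length of the principal transcript, scaled so that all genes with a known length sum to 1000000 in each library. These levels, and the sums and shares below, were not corrected for GC content. In the vector library the order was MCL1 (181), BAX (136), BAD (45.6), BAK1 (32.2), BID (27.9), BCL2L1 (27.9), PMAIP1 (17.6), BCL2L2 (8.94), BBC3 (6.39) and BCL2L11 (4.60). BCL2L11 was thus the lowest of the 10 in control cells, and its counting interval (3.63 to 5.75) overlapped that of BBC3 (5.33 to 7.59). BID overlapped with BCL2L1 and barely with BAK1. In the PKP2 library BCL2L11 was the fifth, at 30.0 (interval 27.2 to 33.1), overlapping BAD (33.2), BCL2L1 (30.3), BID (29.1) and BAK1 (26.5), so its place among them is not set by the counts, although BAD lay above BAK1 beyond counting error. MCL1 (204) and BAX (84.8) remained the highest, PMAIP1 was at 18.2, and BCL2L2 (2.91) and BBC3 (2.46) were the lowest and overlapped each other.

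The make-up of the BH3-only group differed more than its sum. Its summed level was 102 with vector and 113 with PKP2, but 111 and 102 with the longest transcript of each gene as its length, a choice made after the data were seen. BCL2L11 made up 4.51% of it with vector and 26.6% with PKP2 (1.36% and 9.53% by the longest transcript). BBC3 went from 6.26% to 2.18%, and BAD from 44.7% to 29.4%, where the GC-corrected ratios of these genes were -0.70 and 0.07. The level of BCL2L11 over that of BBC3 was 0.721 with vector and 12.2 with PKP2 (0.210 and 3.55 by the longest transcript). Against the pro-survival genes, the level of BCL2L11 over that of BCL2L1 was 0.165 and 0.990 (0.0481 and 0.288 by the longest transcript), and over that of MCL1 0.0254 and 0.148 (0.00740 and 0.0429).

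The effector sum was 168 with vector and 111 with PKP2, and the pro-survival sum was 218 and 237, of which MCL1 made up 83.1% and 86.0%. Effectors took 34.4% of the summed level of the 10 genes with vector and 24.1% with PKP2, and pro-survival genes took 44.6% and 51.4%. BH3-only genes took 20.9% and 24.5%. With the longest transcript as the length, the effector share again was lower (25.9% and 18.6%), but the BH3-only share was 23.1% and 22.7%, so its direction turned. BCL2L11 depends most on that choice: its level was then 1.5 with vector and 9.76 with PKP2, the eighth of the 10. After the GC correction the ratios of the effectors BAX and BAK1 were -0.39 and -0.06, against -0.72 and -0.32 as counted. How much of the lower effector share goes with GC content was not tested. These levels are of RNA and say nothing of protein.

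**Figure D4:**
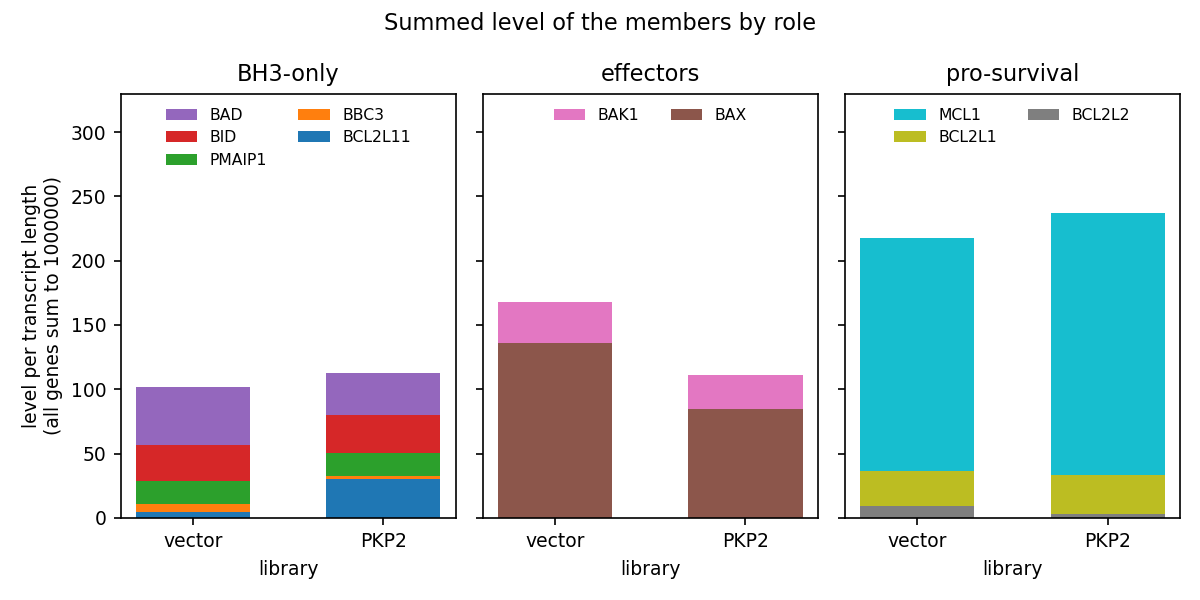
Summed level per length of the principal transcript (all genes sum to 1000000) of the BH3-only, effector and pro-survival genes in the vector and PKP2 libraries, stacked by gene, with 1 library per bar. Levels are not corrected for GC content. The BH3-only sum is 102 and 113 with a larger BCL2L11 part in the PKP2 library, the effector sum is 168 and 111, and the pro-survival sum is 218 and 237.

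Of 14 other genes of the BCL2 family, 7 reached the minimum and all 7 were within 2-fold, as were 92.9% of all genes at the minimum, with a median ratio of -0.10. BCL2, the founding pro-survival gene, had 1189 and 1112 counts, for a ratio of 0.14 (interval 0.02 to 0.26). BOK, a relative of BAX and BAK, was at -0.56 (0.00 after the GC correction; 250 and 144 counts). BCL2L12 was at -0.68 and -0.40 after the correction, but has 35.6% of its 31-base stretches in common with other genes and overlaps IRF3 on the opposite strand. BCL2L13, a mitochondrial receptor of mitophagy, was at -0.33. The mitophagy receptors BNIP3 and BNIP3L were at -0.10 and 0.65 (interval 0.49 to 0.80), and BECN1, the autophagy protein beclin, at -0.03. The BH3-only genes BMF (8 and 4 counts), BIK (4 and 2) and HRK (3 and 0) and the genes BCL2L10 (4 and 2) and BCL2L15 (12 and 3) were under the minimum, so differences in them were not detectable at this depth. BCL2A1 and BCL2L14 were looked up but matched none of the genes listed.

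Transcription factors known to act on BIM, PUMA or NOXA had a median ratio of -0.28 over 14 genes at the minimum, and -0.13 after the GC correction. Of these, 1 was at least 2-fold lower (background 4.61%) and 13 were within, and the medians over all genes were -0.03 and -0.01. That gene was CEBPB, a stress and differentiation factor, with 2063 and 845 counts, for a ratio of -1.05 (interval -1.17 to -0.93) and of -0.49 after the correction. RELA, the NF-kB subunit, was at -0.70 (-0.39 corrected), JUN at -0.38 (-0.19 corrected), and TP73 at -0.57 with only 21 and 12 counts and an interval of -1.73 to 0.52. FOXO1, FOXO3 and FOXO4 were in this list. They were chosen to be named after their values were seen, as members of a family known to act on PUMA and BIM. FOXO1 was at -0.38 (-0.43 corrected) and FOXO3 at -0.22 (-0.22 corrected). FOXO4 had 112 and 120 counts, for a ratio of 0.34 (interval -0.05 to 0.72) and of 0.51 after the correction (interval 0.13 to 0.89). RNA levels do not measure the activity of these factors, and their part in the ratio of BCL2L11 was not tested. TP63 had 3 and 1 counts.

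All 23 kinases, ubiquitin ligases and binding proteins of the family were within 2-fold (background 92.9%; median -0.01, and 0.07 after the GC correction). The farthest from 0 was YWHAZ, a 14-3-3 protein of the kind that binds phosphorylated BAD, at 0.70 (0.52 corrected; 10173 and 14023 counts). BTRC, the ubiquitin ligase subunit that marks phosphorylated BIM for degradation, was at -0.51 (interval -0.65 to -0.36; -0.59 corrected). The ERK gene MAPK3 was at -0.43 (-0.05 corrected) and the deubiquitinase USP13 at 0.43 (0.33 corrected).

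Genes of the outer membrane and apoptosome were within 2-fold in all 19 members (background 92.9%), with 16 ratios above 0 (background 47.3%) and 3 below. After the GC correction 14 were above 0 (background 48.9%) and 5 below. The median was 0.19, and 0.03 after the correction, beside -0.03 and -0.01 over all genes. APAF1, the scaffold of the apoptosome, had 570 and 920 counts, for a ratio of 0.93 (interval 0.78 to 1.08; 0.83 corrected). BIRC2, the inhibitor of apoptosis protein cIAP1, was at 0.44 (0.20 corrected). APAF1 was thus the member of this list with the highest ratio under both forms. APAF1, like BNIP3L, BECN1, CEBPB and TP73 above, overlaps exons of another GENCODE gene on the opposite strand, so these counts are less certain. The overlapping genes had few counts for APAF1 (ANKS1B, 8 and 2) and CEBPB (CEBPB-AS1, 15 and 11). They had more for BNIP3L (PNMA2, 383 and 350), BECN1 (PSME3, 4445 and 4022) and TP73 (TP73-AS1, 458 and 333).

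**Figure D5:**
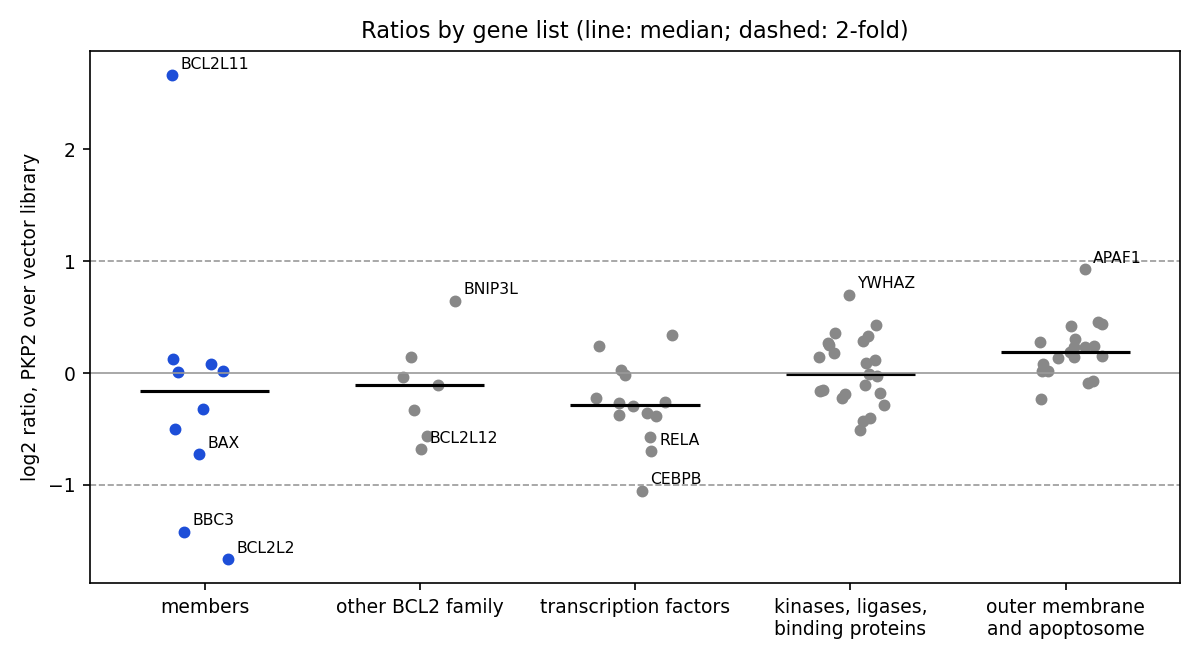
Log2 ratios (PKP2 over vector library) of the 10 BCL2 family genes (blue) and of the genes at the minimum in 4 related lists (grey), 1 point per gene, with the median of each list as a line and 2-fold as dashed lines. BCL2L11, BBC3 and BCL2L2 lie past 2-fold, and of the 4 other lists only CEBPB does.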

How the data were processed

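RNA of H460 cells was sequenced as 1 library per group. Per the submitters' processing notes, the authors used Bowtie 0.12.2 and builds GRCh37 and hg19; how reads were counted, with which annotation and whether by strand, is not given in the sources used here. The deposited values are counts per gene, not normalized, per the file headers. They are classed as estimated counts, as deposited by the authors, because of a decimal in 1 damaged row. No rounding was needed, and 2 unreadable rows per file were left out. Those rows hold no readable count, so their share cannot be given.

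Library totals times edgeR TMM factors (edgeR 4.0.16 in R 4.3.3; 0.991 for the PKP2 and 1.01 for the vector library) gave CPM and log2 ratios, with no pseudocount. Ratio intervals are exact binomial (Clopper-Pearson, 95%) and those of levels are exact Poisson. Without molecular identifiers, reads are not independent molecules, and intervals cover counting error only. A quasi-likelihood test has no spread to estimate from 1 library a group, so no p-value was computed, and genes were described by a 2-fold threshold among genes that averaged 10 counts or more. Transcript GC content, length, overlaps and shared 31-base stretches came from GENCODE 29 by gene ID, which is on another build, so none of its coordinates are given. The GC correction subtracts a lowess curve fitted with statsmodels 0.14.6 at a fraction of 0.3, using genes that averaged 100 counts or more. Intervals of corrected ratios are the counting intervals shifted by the curve, without its own error. Promoter sequences came from RefSeq by symbol, with 5 of 10 genes matched to 1 entry.

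The 10 genes and the lists were chosen with earlier results of these data known. The genes named are the 10, PKP2, the other family genes, overlapping genes and, per further list, up to 4 with ratios farthest from 0 and any past 2-fold. Among transcription factors, FOXO1, FOXO3, FOXO4 and TP63 were named beyond that rule. Alternatives were other scalings (DESeq2 1.42.0 size factors among them), pseudocounts, minimum counts, thresholds, corrections and sums over overlapping genes. For BCL2L2 the sums also took in PABPN1. Sums over either strand and lengths of the longest transcript were added after the data were seen. The steps were tested on simulated counts. Other tools were SciPy 1.17.1, pandas 2.3.3, NumPy 2.4.6, matplotlib 3.10.9 and Python 3.11.15. Some genes counted in the lists are not reported here by name.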

Additional observations from a re-analysis of the deposited data

How the results depend on the processing

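With 1 library per group no replicate could be left out. No paired analysis was possible because each group has only 1 library. The count of 1 gene at least 2-fold higher held in every alternative except the sum over genes that overlap on either strand, where it was 0, since MIR4435-2HG holds most of the counts summed with BCL2L11. The count of 2 genes at least 2-fold lower became 1 with 5 CPM added, with the GC correction and relative to the 100 nearest genes. It was also 1 with a minimum mean of 100 counts and at 3-fold. BBC3 was the gene that dropped out in all of these settings. At a threshold of 1.5-fold the count of lower genes rose to 3, with BAX (1.65-fold lower) added. With overlapping genes summed on the same strand or on either strand the count was 1 because BCL2L2 dropped out. The BCL2L2 sum also took in PABPN1, a downstream gene that was not among its exon overlaps and holds most of that sum. A sum without PABPN1 was not computed, so whether BCL2L2 would drop out without it is not shown. With 5 CPM added the ratios were 1.63 for BCL2L11, -0.57 for BBC3 and -1.04 for BCL2L2. The median of the family, -0.16, became 0.0085 with a minimum mean of 100 counts, which leaves out BBC3. With the longest transcript in place of the principal one, BH3-only genes took 23.1% (vector) and 22.7% (PKP2) of the summed level, effectors 25.9% and 18.6%, and pro-survival genes 51.0% and 58.7%. Of 100 ratios of single genes under 10 alternatives, 80 lay within the counting interval of the ratio as counted and 20 outside it. The 80 do not measure robustness, since many could not leave that interval. Sums over overlapping genes left genes without an overlap as they were, and the other scalings shifted all genes by the same small amount. The GC correction took all members but BCL2L11, BCL2L2 and BID outside that interval. The sign was the same throughout for 6 genes and turned in at least 1 alternative for BAD, BID, MCL1 and PMAIP1, none of which was past 2-fold.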

Other observations

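The protein-coding genes that lie nearest to the 3 members past 2-fold, at 10 counts or more on average, were looked up after the values of these members were seen, up to 2 on each side. Beside BCL2L11, at a ratio of 2.66, lie BUB1, a kinase of the mitotic checkpoint, at 0.11 (3828 and 3503 counts) and ANAPC1, a subunit of the anaphase-promoting complex, at 0.16 (3814 and 3610 counts). The next genes out are RGPD6 at 0.35 (142 and 154 counts) and MERTK, a receptor tyrosine kinase, at 0.80 (interval 0.39 to 1.21; 86 and 127 counts). All 4 were above 0 (background 47.3%) and within 2-fold (background 92.9%), far below BCL2L11. After the GC correction BUB1, ANAPC1, RGPD6 and MERTK were at -0.02, 0.08, 0.14 and 0.78, so BUB1 was no longer above 0.

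Beside BBC3, at -1.42, lie SAE1, a subunit of the SUMO-activating enzyme, at -0.10 (3274 and 2588 counts) and CCDC9 at -0.27 (449 and 316 counts), followed by ZC3H4 at -0.20 and INAFM1 at -1.04 with only 29 and 12 counts. After the GC correction these were at -0.04, 0.24, 0.12 and -0.24, while BBC3 was at -0.70. Beside BCL2L2, at -1.66, lie PABPN1 (-0.43) and SLC7A8, an amino acid transporter, at -0.22 (66 and 48 counts). Further out are SLC22A17, a lipocalin receptor, at -0.93 (119 and 53 counts; -0.44 after the GC correction) and C14orf119 at -0.14 (1366 and 1054 counts).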
